A study of Homo sapiens with 6 samples.

Results

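The genes described here were 10 classical target genes of the oestrogen receptor in breast cancer cells, out of 60656 genes in the deposited table: TFF1, TFF3, AGR2, AGR3, PGR, GREB1, MYB, CA12, PDZK1 and SUSD3. They were selected by name, as genes that oestrogen is known to induce in such cells. Earlier results of the same 6 libraries were known at the time. The fold changes of these genes below, and their calls by the fit, are thus a description and serve as no test. All 10 had enough counts to enter the fit, which covered 10863 genes. The libraries came from parental ZR-75-1 cells, an oestrogen receptor-positive (ER-positive) human breast cancer line, and all of them were grown in RPMI-1640 with fetal bovine serum. In 3 libraries the cells had received DMSO, the solvent control, and in 3 they had received 500 nM abemaciclib, an inhibitor of the cyclin-dependent kinases CDK4 and CDK6, in each case for 4 days. The data are thus from 1 cell line at 1 dose and 1 time. No library had oestrogen added, withdrawn or blocked, so the label of the genes as oestrogen targets could not itself be checked here.

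The oestrogen receptor, encoded by ESR1, is a ligand-activated transcription factor that binds enhancers together with FOXA1 and GATA3 and recruits coactivators to its target genes. Its targets in breast epithelium include secreted peptides such as TFF1, whose induction by oestrogen was among the earliest described, transcription regulators such as PGR, and membrane proteins and scaffolds such as CA12 and PDZK1. PGR protein is scored in the clinic as a sign of a working receptor. Abemaciclib keeps the retinoblastoma protein in its unphosphorylated form, which holds back E2F transcription factors and arrests cells before S phase.

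The 3′ mRNA libraries give 1 tag near the end of each polyadenylated transcript, so levels, in counts-per-million (CPM, scaled by the TMM method), can be set side by side between genes without a length correction. Total counts lay between 3317860 and 4013156 a library. A count of 0 allowed up to 3 counts, or 0.748 to 0.904 CPM on total counts without TMM, a limit that covers counting error only. MKI67, a marker of cycling cells, was at 494 to 557 CPM with DMSO and at 3.21 to 7.57 CPM with abemaciclib, and all 6 genes of a short proliferation list were lower past the threshold (an adjusted p under 0.05 by edgeR, adjusted over all genes). All 7 luminal breast markers were detected, with a summed level of 6661 to 7275 CPM with DMSO and 7563 to 8640 CPM with abemaciclib. They went both ways: KRT19, which makes up much of the sum, and ESR1 were higher past the threshold, KRT18 was lower and 4 were not called. The basal keratins KRT5 and KRT14 and the basal factor TP63 were at 0 counts in every library, and KRT17 had at most 5. ACTA2 of the same list had 21 to 44 counts with DMSO and 2 to 6 with abemaciclib, and was lower past the threshold. It entered the fit through its DMSO counts only, and its 3′ end overlaps ACTA2-AS1 on the opposite strand. OXTR had 16 to 43 counts with DMSO and 19 to 28 with abemaciclib and was not called. The basal list summed to 12.2 to 27.9 CPM with DMSO and 7.40 to 9.19 CPM with abemaciclib. The 5 stromal markers summed to at most 15.8 CPM and the 4 blood cell markers to at most 0.493 CPM in any library. The part that the loss of cycling cells or the basal list had in the members' values was not tested.

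Promoters of members that rose and of the one that fell past the threshold are shown first. The sequence just before the start of transcription is only one of the places where a receptor half-site or an E2F word can lie. In the table of RefSeq promoters used here (GRCh38.p14), 5 of the 10 members were matched to a window whose 250 bases lie outside any exon of the gene: AGR2, PGR, MYB, CA12 and PDZK1. The 250 bases before the start are given for the 3 of these with the largest rises and for the one that fell. Capitals mark an oestrogen response element half-site, GGTCA or TGACC, or an E2F word, TTTNNCG in which each N is G or C, each searched on both strands.
PDZK1, chr1:145707401-145707650, minus strand: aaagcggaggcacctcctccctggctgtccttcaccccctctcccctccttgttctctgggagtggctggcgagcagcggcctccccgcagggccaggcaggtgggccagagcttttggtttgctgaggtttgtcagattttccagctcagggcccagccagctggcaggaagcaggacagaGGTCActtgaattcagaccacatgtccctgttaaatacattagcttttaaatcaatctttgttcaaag
CA12, chr15:63381847-63382096, minus strand: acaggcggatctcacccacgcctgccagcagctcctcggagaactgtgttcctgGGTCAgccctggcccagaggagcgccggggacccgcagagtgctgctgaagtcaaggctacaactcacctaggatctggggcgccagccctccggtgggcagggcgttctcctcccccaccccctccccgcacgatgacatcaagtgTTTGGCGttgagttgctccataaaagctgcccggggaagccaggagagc
AGR2, chr7:16805000-16805249, minus strand: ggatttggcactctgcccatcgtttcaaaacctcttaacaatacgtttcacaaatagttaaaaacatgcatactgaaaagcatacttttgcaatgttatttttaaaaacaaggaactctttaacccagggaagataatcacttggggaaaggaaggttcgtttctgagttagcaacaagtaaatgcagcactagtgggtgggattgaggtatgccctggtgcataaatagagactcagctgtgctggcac
PGR, chr11:101129814-101130063, minus strand: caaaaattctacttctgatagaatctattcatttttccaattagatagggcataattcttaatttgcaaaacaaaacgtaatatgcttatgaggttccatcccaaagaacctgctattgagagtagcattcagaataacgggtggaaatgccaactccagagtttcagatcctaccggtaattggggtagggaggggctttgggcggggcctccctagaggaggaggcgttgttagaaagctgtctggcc
Counting back from -1 at the last base before the start, the half-site of PDZK1 began at -68 and that of CA12 at -196, and CA12 also held an E2F word at -49. The MYB window, which is not printed, held an E2F word at -61 and no half-site. Neither kind of word was found in the AGR2 and PGR windows. Among 27303 RefSeq promoters of the same length, 33.05% held a half-site and 7.355% an E2F word. GGTCA and TGACC set 3 bases apart, the full palindrome, occurred in 12 of those promoters, or 0.044%, and in none of the 5 members' windows. Many functional receptor sites lie in enhancers far from the start, which these windows do not reach.

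With abemaciclib, PDZK1, TFF1, TFF3, CA12 and AGR2 were higher, PGR was lower, and AGR3, MYB, GREB1 and SUSD3 differed by less. Past the threshold, 5 of the 10 members were higher, beside 12.5% of all genes tested, and 1 was lower, beside 13.3% of all genes tested. For 8 members the abemaciclib libraries all lay above the DMSO libraries, as for 19.1% of all genes, and for 2 they all lay below, as for 20.1% of all genes. Since the members were selected with these contrasts known, nothing is read from these counts. The median log2 fold change of the members was 0.64, beside -0.0018 for all genes tested, whose middle 50% ran from -0.32 to 0.31. The members did not move as one: their log2 fold changes spanned from -0.95 for PGR to 3.80 for PDZK1. Summed over the 10 genes, the level was 1782 ± 44.2 CPM with DMSO and 5780 ± 302 CPM with abemaciclib (mean ± SD, n = 3 each). TFF1 alone made up 33.4% to 35.8% of that sum with DMSO and 60.2% to 61.2% with abemaciclib, so with abemaciclib the sum is mostly 1 gene. With DMSO, AGR2 was nearly as high, with a mean of 583 CPM beside 622 CPM for TFF1.

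**Figure D1:**
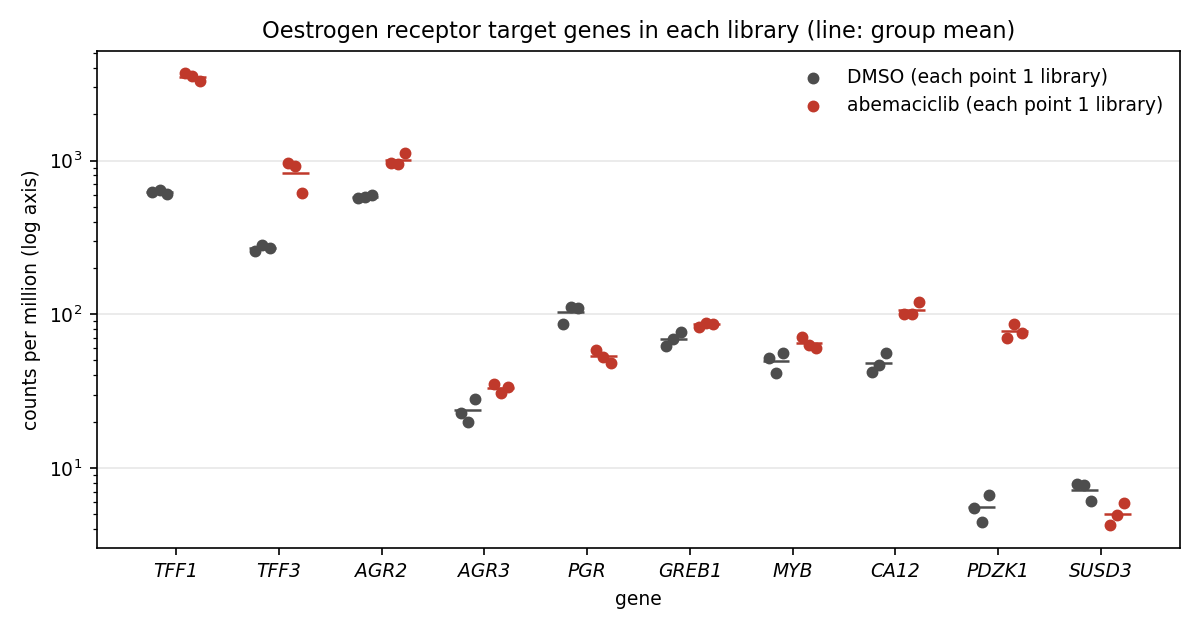
Level of each of the 10 target genes in CPM (log axis), with 1 point for each of the 3 DMSO (grey) and 3 abemaciclib (red) libraries and a line at each group mean. PDZK1 shows the widest gap, from 4.46 to 6.66 CPM up to 70.5 to 86.8 CPM, PGR and SUSD3 lie lower with abemaciclib, and the groups of AGR3, GREB1, MYB and SUSD3 almost touch.

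TFF1 and TFF3 encode trefoil peptides, small secreted proteins with a disulphide-bonded fold that associate with mucus at epithelial surfaces. TFF1 (ENSG00000160182, chr21:42362282-42366535, minus strand) was at 620, 643 and 604 CPM in the DMSO libraries and at 3694, 3559 and 3281 CPM in the abemaciclib libraries. The lowest abemaciclib library was 5.10 times the highest DMSO library. Its log2 fold change was 2.50 ± 0.089 (SE), a fold of 5.64 between the group means with a 95% interval of 4.97 to 6.40 from the fit. In order of level among all genes tested it stood at place 196 with DMSO and at place 20 with abemaciclib. TFF3 (ENSG00000160180, chr21:42311667-42315409, minus strand), its neighbour in the same gene cluster, was at 259, 281 and 270 CPM with DMSO and at 958, 916 and 616 CPM with abemaciclib. The DMSO libraries were close together, whereas abemaciclib replicate 3 was well below the other two and gave TFF3 the largest coefficient of variation of any member in either group, 22.4%. The log2 fold change of TFF3 was 1.62 ± 0.12 (95% interval 1.37 to 1.87), and it was 1.80 without abemaciclib replicate 3.

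Within each library, TFF1 counts were 2.24 to 2.39 times those of TFF3 with DMSO and 3.86 to 5.32 times with abemaciclib. The mean ratio was 2.31 ± 0.079 with DMSO and 4.35 ± 0.84 with abemaciclib (SD, n = 3 each), and the ranges did not overlap. A ratio inside a library does not depend on how libraries are scaled to each other. The highest abemaciclib ratio came from replicate 3, and without it the mean was 3.87. TFF2, the trefoil gene that lies between them on the chromosome, had 0 to 3 counts with DMSO and 3 to 10 with abemaciclib, too few to enter the fit.

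AGR2 and AGR3 are anterior gradient proteins, members of the protein disulphide isomerase family that reside in the endoplasmic reticulum, where AGR2 takes part in the folding of mucins. AGR2 (ENSG00000106541, chr7:16791811-16833433, minus strand) was at 572, 581 and 595 CPM with DMSO and at 961, 956 and 1119 CPM with abemaciclib. The groups were far apart for the spread within them, and abemaciclib replicate 3, the lowest library for TFF3, was here the highest. The log2 fold change was 0.80 ± 0.091 (95% interval 0.61 to 0.98). AGR3 (ENSG00000173467, chr7:16859412-16881987, minus strand), the adjacent gene, was at a far lower level, 22.9, 19.9 and 28.2 CPM with DMSO and 35.4, 30.6 and 33.8 CPM with abemaciclib. Its lowest abemaciclib library was only 1.09 times its highest DMSO library, and its log2 fold change of 0.49 ± 0.19 (95% interval 0.091 to 0.89) was not past the threshold. AGR2 counts were 25.1 ± 4.02 times those of AGR3 with DMSO and 30.5 ± 3.07 times with abemaciclib (SD, n = 3 each). The ranges, 21.1 to 29.2 and 27.1 to 33.1, overlapped, unlike those of the trefoil pair.

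**Figure D2:**
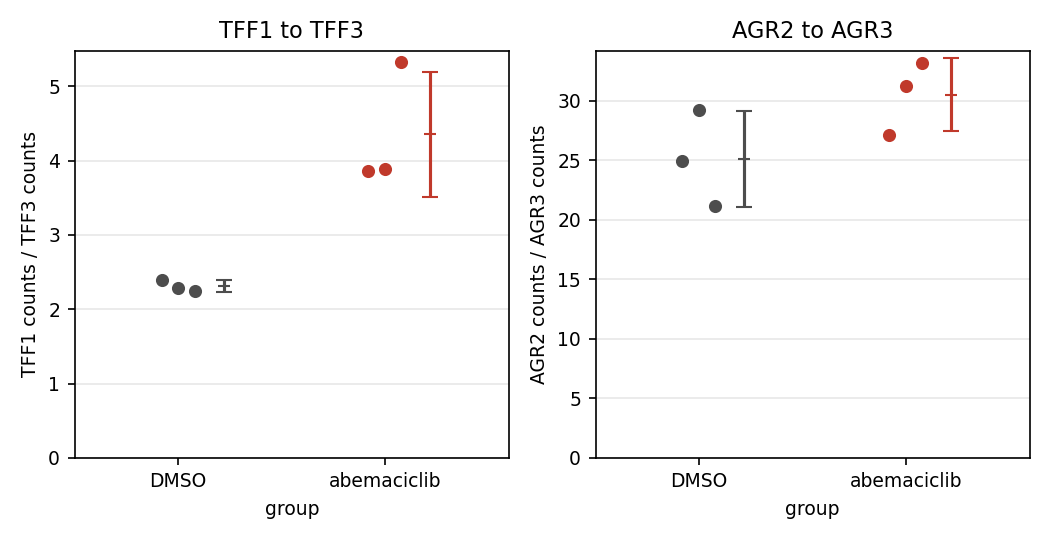
Ratio of counts within each library for TFF1 over TFF3 (left) and AGR2 over AGR3 (right), with 1 point a library and the mean ± SD beside the points of each group. The trefoil ratio runs from 2.24 to 2.39 with DMSO and from 3.86 to 5.32 with abemaciclib, while the ranges of the anterior gradient ratio overlap.

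Of the nuclear regulators, PGR encodes the progesterone receptor, GREB1 a chromatin-bound cofactor of the oestrogen receptor, and MYB a transcription factor whose elongation past the first intron depends on oestrogen in breast cancer cells. PGR (ENSG00000082175, chr11:101029624-101129813, minus strand) was at 87.0, 112 and 110 CPM with DMSO and at 58.7, 53.0 and 48.1 CPM with abemaciclib. All 3 abemaciclib libraries were below the lowest DMSO library, which was replicate 1. The log2 fold change was -0.95 ± 0.14 (95% interval -1.23 to -0.67), so the mean with DMSO was 1.93 times that with abemaciclib, and 7.27% of all genes tested had a lower fold change. GREB1 (ENSG00000196208, chr2:11482341-11642788, plus strand) was at 62.4, 69.5 and 76.6 CPM with DMSO and at 83.2, 87.8 and 86.7 CPM with abemaciclib. The gap between the nearest libraries of the groups was smaller than the range of the DMSO libraries. The log2 fold change of GREB1 was 0.31 ± 0.13 (95% interval 0.043 to 0.57), which was not past the threshold. MYB (ENSG00000118513, chr6:135181308-135219173, plus strand) was at 52.2, 41.6 and 55.7 CPM with DMSO and at 71.1, 63.2 and 60.5 CPM with abemaciclib. Its log2 fold change of 0.38 ± 0.15 (95% interval 0.075 to 0.68) was likewise not past the threshold. With DMSO the level of PGR was above those of both GREB1 and MYB. With abemaciclib it was below both in every library, so the order of the regulators changed.

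The remaining members act at the cell membrane. CA12 encodes a transmembrane carbonic anhydrase that interconverts carbon dioxide and bicarbonate outside the cell, PDZK1 a scaffold whose PDZ domains tether membrane transporters, and SUSD3 a cell-surface protein with a sushi domain. PDZK1 (ENSG00000174827, chr1:145670852-145708148, minus strand) was at 5.51, 4.46 and 6.66 CPM with DMSO and at 70.5, 86.8 and 75.7 CPM with abemaciclib. The lowest abemaciclib library was 10.6 times the highest DMSO library. With DMSO these values rested on 19, 15 and 22 counts, and with abemaciclib on 233, 352 and 280. The log2 fold change was 3.80 ± 0.21, a fold of 14.0 between the group means with a 95% interval of 10.4 to 18.8 from the fit, and only 5 genes of all those tested had a higher one. PDZK1 went from the lowest level of the 10 members with DMSO to place 6 with abemaciclib, above MYB and PGR. Its pseudogene PDZK1P1 had 0 or 1 count in each library. The 3′ end of PDZK1 lies 202 bases from GPR89A, which had 22 to 27 counts with DMSO and 27 to 57 with abemaciclib.

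CA12 (ENSG00000074410, chr15:63321378-63381846, minus strand) was at 42.1, 46.9 and 56.0 CPM with DMSO and at 101, 99.7 and 121 CPM with abemaciclib. Every abemaciclib library was at least 1.78 times the highest DMSO library, and the log2 fold change was 1.15 ± 0.14 (95% interval 0.86 to 1.43). SUSD3 (ENSG00000157303, chr9:93058688-93085133, plus strand) was at 7.83, 7.72 and 6.06 CPM with DMSO and at 4.24, 4.93 and 5.94 CPM with abemaciclib. Although the CPM values did not overlap, they rested on 20 to 27 counts with DMSO and 14 to 22 with abemaciclib, which did. The log2 fold change of SUSD3 was -0.51 ± 0.40 (95% interval -1.33 to 0.31), so a fall of 1 on the log2 scale and a small rise are both within its error. SUSD3 had the largest biological coefficient of variation of the members in the fit, 24.3%, against a median of 15.0% over all genes.

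**Figure D3:**
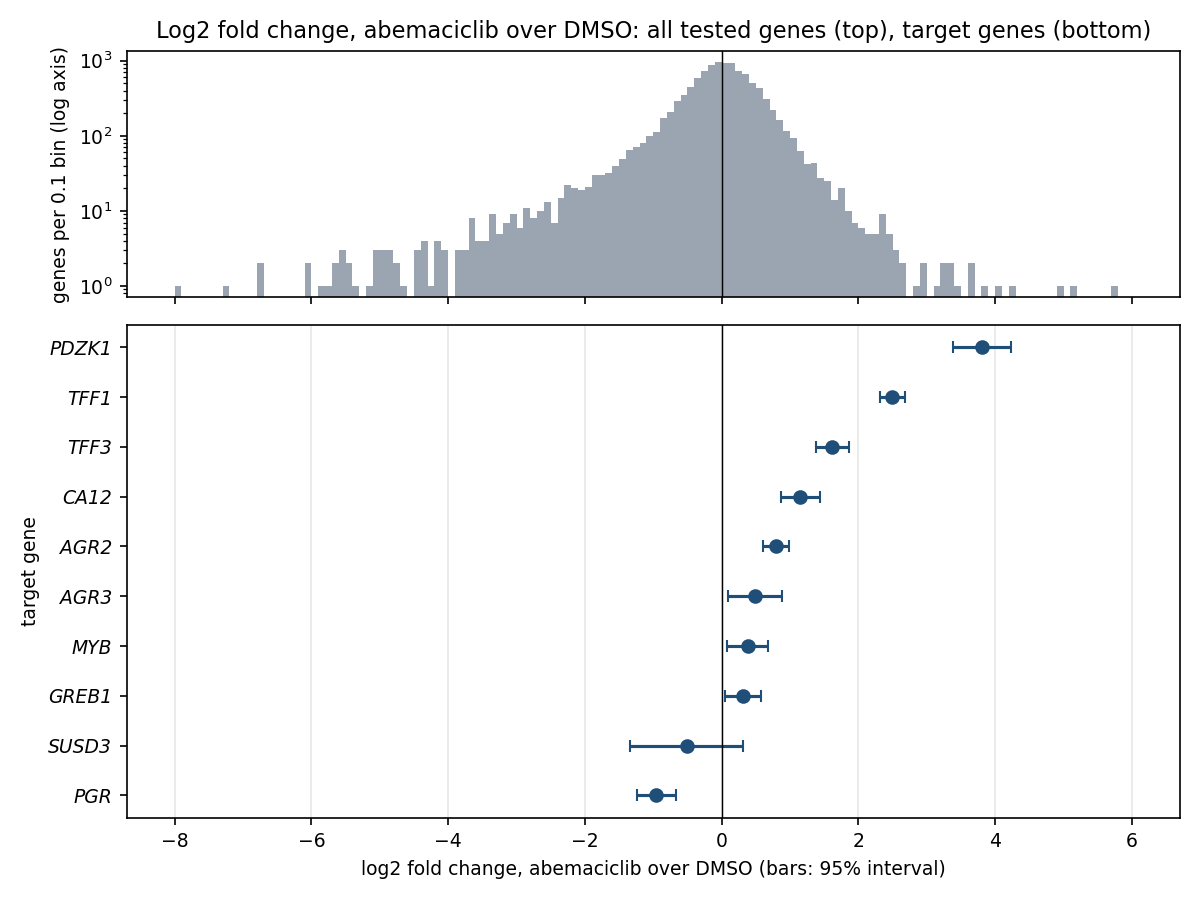
Log2 fold change, abemaciclib over DMSO, for all 10863 genes tested as a histogram with a log count axis (top) and for the 10 target genes with 95% intervals (bottom). The members run from -0.95 for PGR to 3.80 for PDZK1, and SUSD3 is the one whose interval includes 0.

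For MYB and PGR, antisense genes share exon sequence on the opposite strand, and the strand setting of the counting is not given in the sources used here. MYB-AS1 had 0 counts in every library and PGR-AS1 had 0 to 3, so few reads were assigned to them. No exon of another gene overlapped an exon of the other 8 members. Of the genes named below, PRSS23, CCND1, KMT2D, P4HB and the barely detected KRT13 have a 3′ end that overlaps a gene on the opposite strand, so their counts are less certain.

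Whether other genes under the receptor moved with the members was asked with a list of 48 further oestrogen-induced genes. Of the 44 tested, 21 were higher and 1 was lower past the threshold, beside 12.5% and 13.3% of all genes tested, shares that apply to each list below as well. The median log2 fold change was 0.47, beside -0.0018 over all genes. The fit gave 34 of the 44 a positive fold change. The largest rise was that of PRSS23, a secreted serine protease, with 2, 3 and 0 counts in the DMSO libraries and 10, 26 and 37 with abemaciclib (log2 fold change 3.63 ± 0.71, adjusted p = 0.00028 in edgeR). At such counts the value moved to 4.31 without DMSO replicate 2 and to 3.09 without DMSO replicate 3. PRSS23 entered the fit through its abemaciclib counts only, and a requirement of at least 10 counts in every library leaves it out. Its 3′ end overlaps that of FZD4 on the opposite strand, which had 10 to 18 counts with DMSO and 11 to 21 with abemaciclib. HSPB8, a small heat shock protein, was at 1.21 to 5.80 CPM with DMSO and at 20.3 to 27.8 CPM with abemaciclib (log2 fold change 2.65 ± 0.34, adjusted p = 8.1e-07 in edgeR). It had 20, 14 and 4 counts in the DMSO libraries and 67, 92 and 103 with abemaciclib. HSPB8 too passed the filter only through its abemaciclib counts, and the requirement of at least 10 counts in every library leaves it out. TPD52L1, of the tumour protein D52 family, rose from 15.4 to 18.6 CPM up to 69.3 to 81.3 CPM (2.09 ± 0.17, adjusted p = 9.1e-11 in edgeR). EGR3, an immediate early zinc finger factor, rose by 1.74 ± 0.18 on the log2 scale (adjusted p = 1.5e-08 in edgeR), with 22.3 to 24.7 CPM in the DMSO libraries. In the abemaciclib libraries EGR3 was at 92.0, 89.1 and 55.7 CPM, with the lowest value in replicate 3 as for TFF3.

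CHPT1, a choline phosphotransferase of phospholipid synthesis, was the gene of this list that fell, from 25.1 to 31.0 CPM down to 6.66 to 13.01 CPM (-1.38 ± 0.25, adjusted p = 0.00012 in edgeR). Named after their values were seen, CCND1, which encodes cyclin D1, rose from 1167 to 1205 CPM up to 2925 to 3045 CPM, and MYC was at 33.3 to 40.3 CPM with DMSO and 28.4 to 37.7 CPM with abemaciclib. The 4 genes of the list not tested, KRT13, KCNK5, CXCL12 and CCN5, had at most 10 counts in any library. The list and the members share their source in common knowledge of oestrogen action and were chosen with results of these data known, so neither is independent evidence of a direction. Of 6 genes that oestrogen represses, YPEL3 was lower past the threshold (-0.83 ± 0.19, adjusted p = 0.0016 in edgeR), 0 were higher and the median was -0.19. Of these 6 genes, 3 had a positive fold change.

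**Figure D4:**
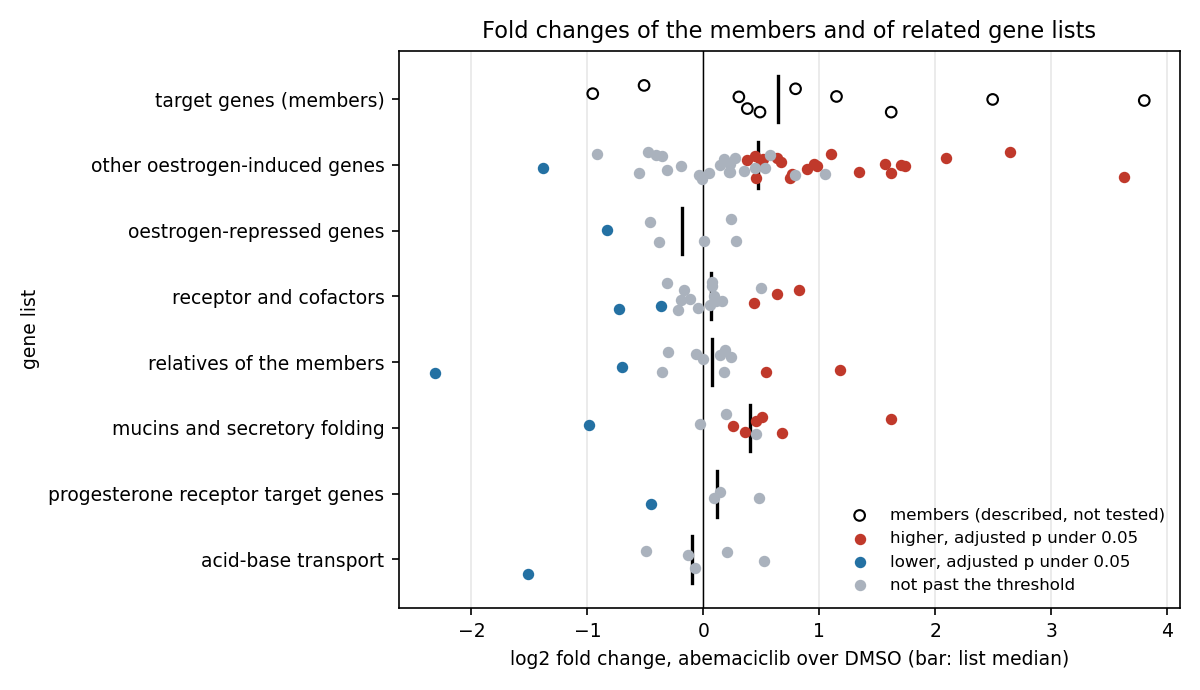
Log2 fold change, abemaciclib over DMSO, of the 10 members (open circles, no test) and of the tested genes in 7 lists, coloured by whether they were higher or lower at an adjusted p under 0.05 in edgeR; bars are list medians and the vertical scatter is arbitrary. The other oestrogen-induced genes and the mucin and folding genes have medians of 0.47 and 0.41, and the other lists lie between -0.19 and 0.12.

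ESR1, the gene of the receptor itself, rose. It was at 215, 225 and 191 CPM in the DMSO libraries and at 385, 395 and 340 CPM in the abemaciclib libraries, and the groups did not overlap (0.83 ± 0.10, adjusted p = 2.9e-07 in edgeR). Of 18 receptor, pioneer factor and cofactor genes, all tested, 3 were higher and 2 lower past the threshold, and the median was 0.065. Besides ESR1, the higher genes were TFAP2C, an AP-2 factor of luminal breast cells (0.44 ± 0.10, adjusted p = 0.0024 in edgeR), and KMT2D, a histone H3 lysine methyltransferase (0.64 ± 0.20, adjusted p = 0.017 in edgeR). The lower genes were RB1, which encodes the retinoblastoma protein (-0.73 ± 0.16, adjusted p = 0.0010 in edgeR), and SPDEF, a luminal ETS factor (-0.37 ± 0.11, adjusted p = 0.012 in edgeR). Without abemaciclib replicate 2 the adjusted p was 0.080 for KMT2D and 0.051 for SPDEF, and it was 0.052 for KMT2D without DMSO replicate 2 and 0.069 for SPDEF without DMSO replicate 3. FOXA1 was at 234 to 250 CPM with DMSO and 234 to 267 CPM with abemaciclib, and its log2 fold change was 0.074 ± 0.098. In these bulk libraries, more cells with a transcript and more of it per cell cannot be told apart.

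Relatives of the members were compared to see which of the fold changes a family shared. Of 18 relatives, 12 were tested, 2 were higher, 2 were lower and the median was 0.074. Beside MYB, the related MYBL2, an E2F target that works in cycling cells, was at 321 to 386 CPM with DMSO and at 46.7 to 89.8 CPM with abemaciclib (-2.32 ± 0.15, adjusted p = 6.1e-13 in edgeR). Beside SUSD3, SUSD4 rose from 9.21 to 10.9 CPM up to 18.6 to 24.2 CPM (1.18 ± 0.25, adjusted p = 0.00073 in edgeR). Beside GREB1, GREB1L fell (-0.70 ± 0.23, adjusted p = 0.022 in edgeR), a call lost with DESeq2, where the adjusted p was 0.070, and without DMSO replicate 1 (0.10), DMSO replicate 3 (0.090) or abemaciclib replicate 2 (0.12). For PDZK1, the related scaffolds NHERF1 and NHERF2 had log2 fold changes of 0.18 ± 0.085 and 0.18 ± 0.13, neither past the threshold. Next to CA12, the carbonic anhydrase gene CA9 had 0 counts in every library and CA2 at most 10.

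The trefoil peptides and AGR2 belong to the mucus-secreting programme of epithelia, and 12 genes of mucins and secretory folding were looked up for that reason. Of 10 tested, 6 were higher and 1 was lower, with a median of 0.41. MUC5B, a gel-forming mucin, rose from 24.4 to 30.6 CPM up to 61.1 to 101 CPM (1.62 ± 0.18, adjusted p = 3.3e-08 in edgeR), and MUC1, a transmembrane mucin, rose by 0.68 ± 0.093 on the log2 scale (adjusted p = 1.8e-06 in edgeR). The disulphide isomerase genes PDIA4 (0.50 ± 0.11, adjusted p = 0.0013 in edgeR) and P4HB (0.45 ± 0.089, adjusted p = 0.00029 in edgeR) were also higher. LYPD3, a surface protein described as a binding partner of AGR2, fell from 27.6 to 32.5 CPM down to 8.38 to 22.4 CPM (-0.98 ± 0.25, adjusted p = 0.0043 in edgeR).

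Genes that the progesterone receptor induces were examined beside the fall of PGR. Of 8 listed, 4 had enough counts, and KLF9, a Krüppel-like factor, was lower (-0.45 ± 0.15, adjusted p = 0.025 in edgeR) while 0 were higher. The fold change was positive for 3 of the 4, and the median was 0.12. With 4 genes tested, no direction is read for the list, and any part of the fall of PGR in these values was not tested. The call of KLF9 was lost with DESeq2 (adjusted p = 0.067), without DMSO replicate 3 (0.12) and without abemaciclib replicate 2 (0.12). TNFSF11 and ZBTB16 had 0 counts in every library. Beside CA12, 9 genes of acid-base transport gave 6 tested, of which 0 were higher and 1, the lactate exporter SLC16A3, was lower (-1.51 ± 0.54, adjusted p = 0.038 in edgeR). SLC16A3 had 13 to 28 counts with DMSO and 3 to 11 with abemaciclib, and its adjusted p was 0.10 with DESeq2 and 0.052 to 0.24 in 5 of the 6 fits that left out a library. It entered the fit through its DMSO counts only, and a requirement of at least 10 counts in every library leaves it out.

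Within 100000 bases of a member, 54 other genes were annotated and 17 were tested, of which 2 were higher and 0 lower past the threshold in edgeR, beside 12.5% and 13.3% of all genes tested, so the share that was higher is close to the background and no result about the neighbours. TSPAN13, a tetraspanin gene 7275 bases from AGR2, was at 204, 259 and 206 CPM with DMSO and at 288, 330 and 341 CPM with abemaciclib (0.52 ± 0.11, adjusted p = 0.00050 in edgeR). RNF115, a ubiquitin ligase gene 30720 bases from PDZK1, was at 117 to 133 CPM with DMSO and at 172 to 185 CPM with abemaciclib (0.51 ± 0.11, adjusted p = 0.00062 in edgeR). The median log2 fold change of the 17 neighbours was 0.21. No tested neighbour was found within that distance of PGR, and for TFF1 and TFF3 the only one was ABCG1, at 4.44 to 8.18 CPM in all libraries.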

How the data were processed

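RNA of 3 DMSO and 3 abemaciclib cultures of parental ZR-75-1 cells was measured by 3′ mRNA sequencing, and libraries were grouped by the treatment in their labels. The study calls the replicates independent. The authors trimmed reads (BBDuk), aligned them (STAR 2.7.5b, hg38) and counted them (featureCounts 2.0.1, GENCODE genes). The deposited table holds raw counts, neither normalized nor filtered. RB1 knockout libraries were not analysed here.

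Genes were filtered with filterByExpr, scaled by TMM and fitted with edgeR 4.0.16 (glmQLFit, glmQLFTest) in R 4.3.3, abemaciclib against DMSO with no other term, and p-values were adjusted by Benjamini-Hochberg over all 10863 genes tested (threshold 0.05). SE is the absolute log2 fold change over the square root of F. The fit was tested on simulated data with the same dispersion for every gene, which does not cover genes of larger spread. CPM values, list sums included, are TMM-scaled except the limit for a count of 0, and SDs are over 3 libraries. Symbols and positions were matched by Ensembl identifier to a newer GENCODE release for GRCh38 (60401 matched, 255 not). No molecular identifiers are described.

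The members and all gene lists were chosen with earlier results of these data known, so list counts are descriptive. Named were every member, ESR1, MKI67, up to 4 genes with the largest rise and 4 with the largest fall past the threshold in each other list, and every neighbour past the threshold within 100000 bases. The values of 1 gene that this rule names are not reported here. Other names are controls, genes with few counts, or genes said to be chosen after their values were seen. Alternatives were the size factors of DESeq2, scaling by total counts only, no filter, at least 10 counts in every library, DESeq2 1.42.0, a replicate block, and each library left out in turn.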

Additional observations from a re-analysis of the deposited data

How the results depend on the processing

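In all fits the 10 members kept the sign of their fold change, and each value stayed within the SD between replicates. Leaving out 1 of 3 libraries can hardly move a group mean by more than that SD, so for those fits this is no check. Over all fits TFF1 ran from 2.46 to 2.54 on the log2 scale, PDZK1 from 3.67 to 3.95 and TFF3 from 1.51 to 1.80. CA12 ran from 1.05 to 1.27, AGR2 from 0.72 to 0.84 and PGR from -1.07 to -0.88. The number of members past the threshold was 5 higher and 1 lower in every alternative, except that it was 7 higher without DMSO replicate 3 (AGR3 and MYB added) and 6 without abemaciclib replicate 3 (MYB added). Genes higher numbered 1069 with DESeq2 and 981 to 1412 with a library left out, beside 1354. Of the other oestrogen-induced genes, 2 rather than 1 were lower with total counts as the only scaling, and 1 to 2 with a library left out. The list's median log2 fold change was 0.41 to 0.54 with a library left out. Of the receptor and cofactor genes, 1 to 3 were lower with a library left out. Same-numbered libraries did not deviate together (correlations of -0.049, 0.0074 and -0.096), so the values gave no sign of pairing by number. Whether the cultures were paired cannot be told from such correlations. With a replicate block, 1139 genes were higher and 1280 lower, beside 1354 and 1442, and the members past the threshold were again 5 higher and 1 lower. Depth limits PDZK1 with DMSO and SUSD3 in both groups, which rest on under 30 counts a library.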
